A study of Mus musculus with 18 samples.

Results

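The RNA of 81 genes for orphan, purinergic and lipid-mediator receptors was followed in mouse bone marrow-derived macrophages treated with interleukin-4 (IL-4), with and without a working Irf4 locus. A gene was included when its name on the array was Gpr followed by digits, or began with P2ry, P2rx, Adora, Ptger, Lpar, S1pr or Edg, and when a probe of it exceeded background clearly (the scanner software's flag) on each of the 3 arrays of any group. Of 122 genes on the array with such a name, 81 passed (66.4%), and 69 of these were well above background on all 18 arrays. Where a gene had several such probes, the one that was brightest on average stands for it. The genes were thus selected on their measured signal, through the flag on each array, and counts and medians over the 81 genes are given as a description.

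Bone marrow of C57BL6/J mice aged 8 to 12 weeks was pooled from several animals of both sexes for each sample and grown into macrophages with human CSF1, the growth factor that supports this lineage. The 6 groups of 3 arrays were Irf4+/- and Irf4-/- macrophages, each kept without IL-4 for 18 h (mock), with mouse IL-4 for 4 h, or with IL-4 for 18 h, both at 10 ng/ml. The control genotype therefore also lacks 1 Irf4 allele, no wild-type sample was analysed here, and both IL-4 times share 1 mock group, which was cultured for 18 h. The letters A, B and C name 3 independent experiments with littermates. Between 63.4% and 74.4% of the spots on an array were well above background. Macrophage markers (11 of 11) were well above background on all 18 arrays, and in the marker lists of B cells, plasmacytoid dendritic cells, fibroblasts, T or NK cells, erythroid cells, neutrophils and the basophil, mast cell and eosinophil lineages no gene was called with IL-4 in either genotype. Of 6 tested conventional dendritic cell markers, Kit was called lower at 4 h in both genotypes; of the macrophage markers, 2 were called higher, Fcgr3 among them, and Cd14 was called lower in all 4 IL-4 comparisons. The single Irf4 probe was no lower in Irf4-/- than in Irf4+/- cells (mock -0.77 ± 0.22 against -1.11 ± 0.72, SD, n = 3, log2 level), so the array does not check the genotype labels.

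Levels are log2 intensities minus the 75th percentile of the same array, and a change is the difference between 2 group means with the standard error (SE) of a limma fit across all genes, with 3 arrays a group. A gene is referred to as called, and said to have risen or fallen, at a limma p under 0.05 after Benjamini-Hochberg adjustment over 15445 genes. For a receptor gene whose call differed once the experiment letter entered the fit as a block, that adjusted p is given as the blocked value. A level is never compared between genes, since probes differ in how brightly they bind. RNA of whole cultures was measured, so fewer cells that express a gene and less RNA per cell cannot be told apart.

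Most of these genes encode receptors with 7 membrane-spanning segments that act through G proteins. Macrophages use them to read small molecules released by neighbouring cells: ATP, ADP and UDP leak from damaged cells and act on P2X ion channels and P2Y receptors, while their breakdown product adenosine acts on Adora receptors. Prostaglandin E2, a lipid made from arachidonic acid, acts on the EP receptors encoded by Ptger1 to Ptger4; lysophosphatidic acid (LPA) acts on Lpar receptors and sphingosine-1-phosphate on S1pr receptors. IL-4 signals through STAT6 and drives macrophages towards the alternatively activated state, and Irf4 is a transcription factor that IL-4 induces in these cells.

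In the fit without the experiment as a block, a small set of these receptors was called with IL-4, some of them with large changes. Over the 4 comparisons of IL-4 with mock, 9 receptor genes were called at least once; P2ry1 and Gpr84 were called in all 4. P2ry1 (an ADP receptor), Adora2b (an adenosine receptor) and Ptger2 (the EP2 receptor) were called higher with IL-4. Gpr84 (a receptor for medium-chain fatty acids), Ptger4 (the EP4 receptor), Lpar1 and Lpar2 (LPA receptors) were called lower. Gpr65 (a proton-sensing receptor) and Gpr146 (an orphan receptor) were called higher. Of these 9 genes, 8 were well above background on all 18 arrays, and Lpar2 on 10. Lpar2 passed the filter only through the mock groups, where it was high, so its call as lower is a description. A further 26 genes were called only with the experiment as a block, and 46 were called in none of the 4 comparisons, with changes between -0.85 and 1.17.

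The stretches around the start sites of the 3 genes with the largest called rise and the 3 with the largest called fall after 18 h in Irf4+/- cells are shown, since these genes changed together under 1 stimulus. Each window runs from 250 bases before to 50 bases after the start in RefSeq, build GRCm38.p6, written 5′ to 3′ on the gene's strand. P2ry1 lies at chr3:61002535-61002834 (+ strand), Adora2b at chr11:62248734-62249033 (+), Ptger2 at chr14:44987861-44988160 (+), Gpr84 at chr15:103310389-103310688 (- strand), Lpar2 at chr8:69822315-69822614 (+) and Ptger4 at chr15:5244138-5244437 (-).
P2ry1: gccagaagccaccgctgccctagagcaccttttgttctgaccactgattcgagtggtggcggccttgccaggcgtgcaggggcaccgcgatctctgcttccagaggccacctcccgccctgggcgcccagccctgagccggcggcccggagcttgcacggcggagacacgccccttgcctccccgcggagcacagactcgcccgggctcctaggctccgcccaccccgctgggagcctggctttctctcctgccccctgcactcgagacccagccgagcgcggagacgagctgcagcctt
Adora2b: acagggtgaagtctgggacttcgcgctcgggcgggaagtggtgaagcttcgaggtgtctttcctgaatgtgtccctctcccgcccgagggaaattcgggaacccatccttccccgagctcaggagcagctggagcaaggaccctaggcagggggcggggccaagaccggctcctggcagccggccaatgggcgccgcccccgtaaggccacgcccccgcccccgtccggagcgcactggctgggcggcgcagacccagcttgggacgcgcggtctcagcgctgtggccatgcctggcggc
Ptger2: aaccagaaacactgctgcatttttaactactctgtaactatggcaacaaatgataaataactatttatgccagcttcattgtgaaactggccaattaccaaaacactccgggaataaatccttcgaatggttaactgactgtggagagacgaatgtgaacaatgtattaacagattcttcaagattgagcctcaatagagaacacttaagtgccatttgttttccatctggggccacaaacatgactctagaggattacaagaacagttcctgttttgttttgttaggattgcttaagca
Gpr84: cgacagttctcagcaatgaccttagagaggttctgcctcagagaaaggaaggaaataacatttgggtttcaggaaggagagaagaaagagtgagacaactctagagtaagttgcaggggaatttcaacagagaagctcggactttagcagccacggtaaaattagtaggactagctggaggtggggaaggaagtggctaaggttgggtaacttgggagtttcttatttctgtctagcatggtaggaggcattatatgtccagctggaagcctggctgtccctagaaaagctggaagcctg
Lpar2: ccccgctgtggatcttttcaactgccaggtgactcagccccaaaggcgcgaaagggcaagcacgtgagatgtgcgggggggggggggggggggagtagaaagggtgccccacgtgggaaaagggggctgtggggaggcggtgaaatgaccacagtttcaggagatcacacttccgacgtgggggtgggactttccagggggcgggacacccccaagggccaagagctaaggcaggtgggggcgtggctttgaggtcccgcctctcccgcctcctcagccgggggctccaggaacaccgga
Ptger4: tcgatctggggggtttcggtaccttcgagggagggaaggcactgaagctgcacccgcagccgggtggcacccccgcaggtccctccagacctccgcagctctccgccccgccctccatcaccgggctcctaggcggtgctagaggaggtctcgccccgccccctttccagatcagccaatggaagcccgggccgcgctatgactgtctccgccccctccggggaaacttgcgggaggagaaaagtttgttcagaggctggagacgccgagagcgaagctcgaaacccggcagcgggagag
The P2ry1, Adora2b and Ptger4 windows were rich in CG dinucleotides (25, 27 and 25) and in G and C (70.7%, 70.0% and 67.0%). The Lpar2 window held 15 CG dinucleotides and 66.0% G and C. The Ptger2 and Gpr84 windows each held 3 CG dinucleotides, with 37.7% and 47.0% G and C.

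Windows were searched for TTC and GAA separated by 4 bases of any kind, the spacing of the inverted repeat that STAT6 prefers, and separated by 3 bases, the spacing bound by other STAT proteins. Each motif is its own reverse complement, so both strands are covered. None of the 6 windows above held either motif. Of 32851 windows of the same length in the table, 6.95% held the repeat with 4 bases between and 8.3% that with 3. These are shares of windows, while the receptors are counted by gene. A gene with several windows has more chances of a match. Of the 62 receptor genes with a window, 4 held the first (C5ar2, Gpr161, Gpr85 and Lpar1) and 2 held the second (Gpr146 and Gpr4), and no window of theirs held both. The windows of the 2 called genes among them, selected after their values were seen, are shown with the match in capitals: Gpr146 at chr5:139380389-139380688 (+), 1 of its 3 windows, with the match starting at -119 from the start, and Lpar1 at chr4:58499354-58499653 (-), 1 of its 3 windows, with the match starting at -141.
Gpr146: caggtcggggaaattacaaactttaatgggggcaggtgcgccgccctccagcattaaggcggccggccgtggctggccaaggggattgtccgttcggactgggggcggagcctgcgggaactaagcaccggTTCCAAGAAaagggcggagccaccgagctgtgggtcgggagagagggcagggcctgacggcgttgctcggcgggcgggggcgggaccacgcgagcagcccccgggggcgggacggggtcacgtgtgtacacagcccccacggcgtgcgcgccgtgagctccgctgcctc
Lpar1: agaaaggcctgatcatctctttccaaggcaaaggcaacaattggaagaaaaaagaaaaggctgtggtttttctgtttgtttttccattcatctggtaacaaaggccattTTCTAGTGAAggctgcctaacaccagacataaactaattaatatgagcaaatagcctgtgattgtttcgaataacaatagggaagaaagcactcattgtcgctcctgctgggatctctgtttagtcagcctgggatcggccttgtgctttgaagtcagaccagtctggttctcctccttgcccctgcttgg
A match is a description of the letters only, since binding was not measured here.

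In Irf4+/- cells 5 of the 81 receptor genes were called at 4 h (3 higher, 2 lower) and 6 at 18 h (3 higher, 3 lower), that is 6.17% and 7.41%. Over all genes tested, 4.26% were called at 4 h (2.32% higher, 1.94% lower) and 4.14% at 18 h (2.12% higher, 2.02% lower). In Irf4-/- cells 5 were called at 4 h (3 higher, 2 lower) and 6 at 18 h (3 higher, 3 lower), against 3.92% (2.22% higher, 1.7% lower) and 3.56% (2.14% higher, 1.42% lower) of all genes. The median change of the 81 genes was -0.10 and -0.03 in Irf4+/- cells and 0.16 at both times in Irf4-/- cells, against -0.02, 0.03, 0.08 and 0.12 over all genes. These medians depend on the background correction: normexp gave 0.42, 0.90, -0.37 and -0.15, opposite in sign in all 4, with 58 genes above 0 and 23 below at 4 h in Irf4+/- cells in place of 29 and 52. With the experiment as a block, 21, 19, 22 and 21 receptor genes were called in these 4 comparisons, against 18.2%, 15.5%, 18.2% and 18.4% of all genes. The Irf4+/- groups did not overlap with mock for 17 receptor genes at 4 h and 16 at 18 h (16.3% and 14% of all genes), and the Irf4-/- groups for 21 at each time (21.8% of all genes at each time).

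**Figure D1:**
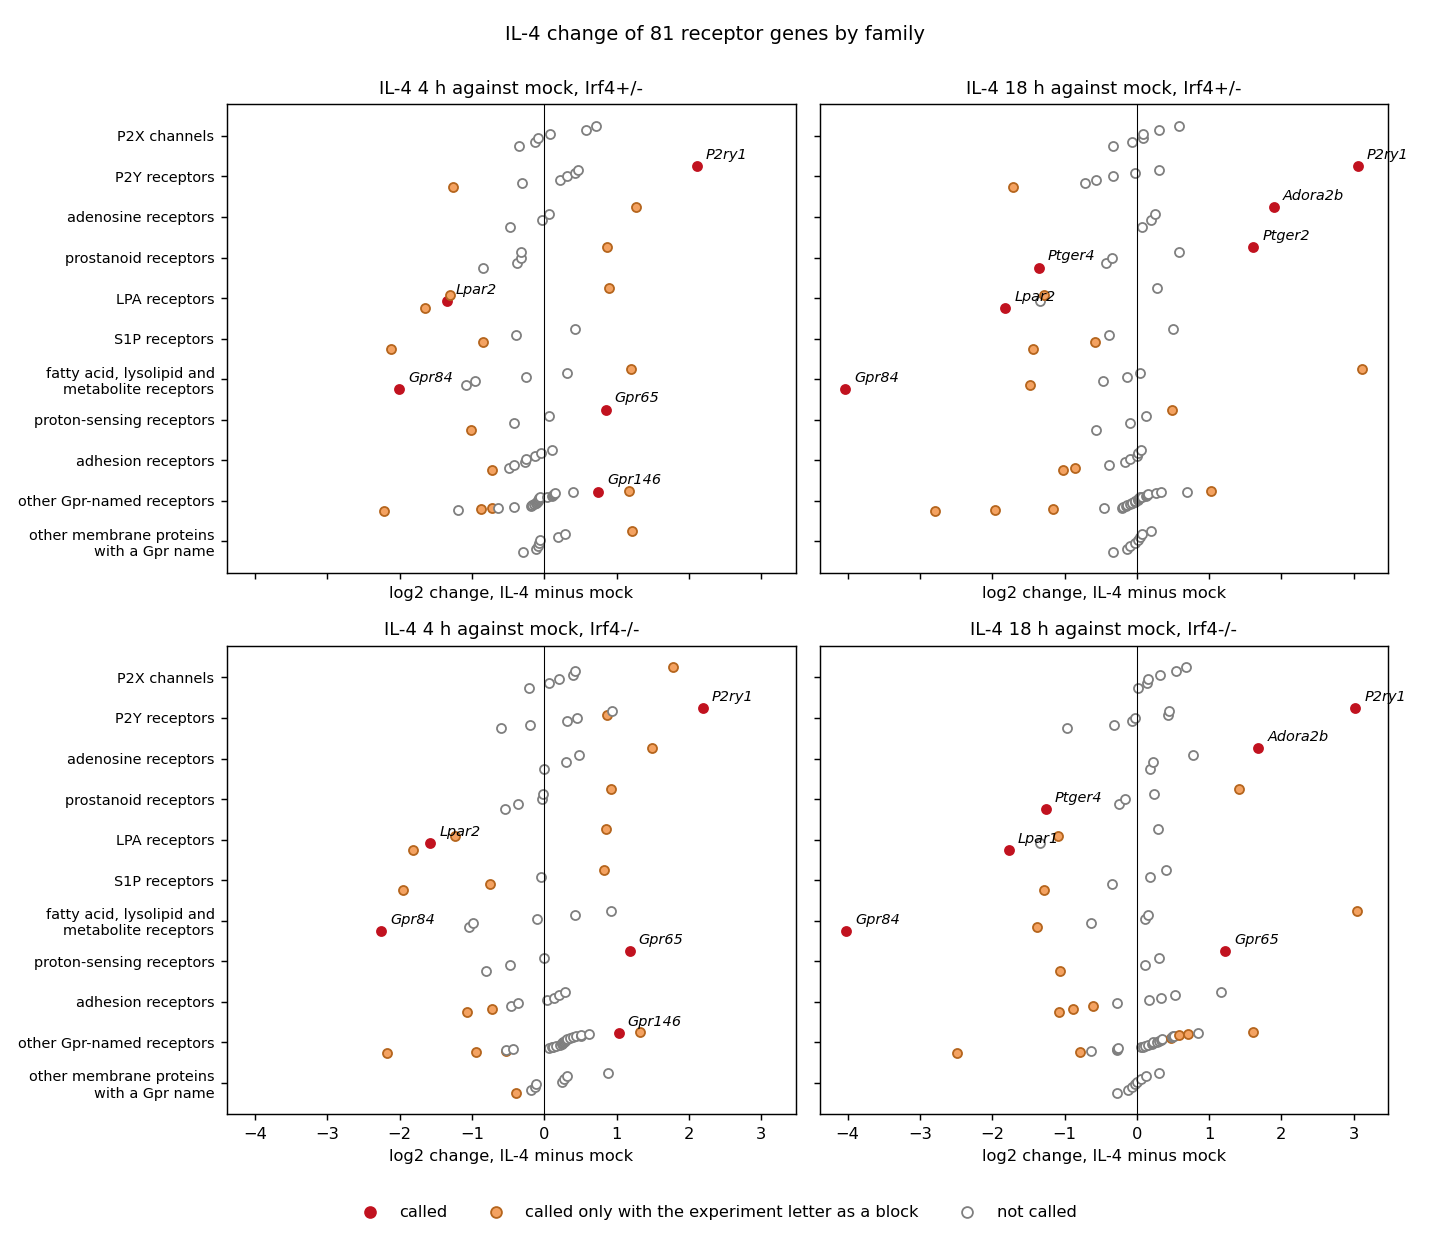
Log2 change with IL-4 against mock (horizontal axis) for each of the 81 receptor genes, 1 row per receptor family and 1 panel per IL-4 time and genotype; red points are called, orange points are called only with the experiment as a block, and open points are not called. The vertical offset within a row only separates points. The P2ry1 point lies far to the right and the Gpr84 point far to the left of 0 in all 4 panels, and most of the other genes lie near 0.

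Among the receptors for nucleotides, P2ry1 rose in every IL-4 comparison. It encodes an ADP receptor that couples to phospholipase C. In Irf4+/- cells its level was -0.57, -1.12 and -1.58 on the mock arrays of experiments A, B and C, then 1.80, 0.78 and 0.49 at 4 h, and 2.45, 1.60 and 1.86 at 18 h. With the Irf4-/- genotype it was -1.39, -1.92 and -1.96 in mock, 1.22, -0.17 and 0.25 at 4 h, and 1.63, 0.94 and 1.22 at 18 h. All IL-4 arrays lay above all mock arrays of their genotype. The rise was 2.11 ± 0.40 at 4 h (SE, n = 3, 4.32-fold, limma adjusted p = 0.00638) and 3.06 at 18 h (8.34-fold, adjusted p = 0.000394) in Irf4+/- cells, and 2.19 (4.57-fold, adjusted p = 0.00566) and 3.02 (8.11-fold, adjusted p = 0.000466) in Irf4-/- cells. A second P2ry1 probe gave 2.17, 3.12, 2.33 and 3.14 in the same order. P2ry1 was called in each of the 18 fits that left out 1 array, in all 4 comparisons.

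Of the 7 P2Y receptors that passed, P2ry1 was the one called without the block. P2ry13, another ADP receptor and one that couples to Gi proteins, had mock levels in Irf4+/- cells of -0.19, 0.05 and -0.16, against -2.16, -1.31 and -0.60 at 4 h and -3.02, -1.33 and -1.08 at 18 h. All its IL-4 arrays lay below its mock arrays in that genotype, with experiment A lowest. The change was -1.26 ± 0.46 at 4 h (adjusted p = 0.185, blocked 0.0165) and -1.71 ± 0.46 at 18 h (adjusted p = 0.0535, blocked 0.0029), and the adjusted p at 18 h ranged from 0.000289 to 0.278 over 11 alternative settings. In Irf4-/- cells P2ry13 gave -0.60 and -0.96 (blocked p 0.228 and 0.0578), and the difference between genotypes was not called. P2ry14, a receptor for UDP-glucose, was called only with the block and only at 4 h in Irf4-/- cells (0.86 ± 0.39, adjusted p = 0.346, blocked 0.00772). P2ry2, a receptor for ATP and UTP, P2ry6, the UDP receptor, and P2ry12, a further ADP receptor, were not called in any comparison, with changes between -0.57 and 0.47; the IL-4 arrays of P2ry6 lay above all mock arrays in Irf4+/- cells. P2ry10 was not called either, with changes from -0.71 to 0.94. P2ry4 did not pass the filter.

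The P2X channels open directly on binding ATP. P2rx7, whose opening in macrophages leads to inflammasome activation, gave 0.08 ± 0.34, -0.33 ± 0.34, 0.06 ± 0.34 and 0.01 ± 0.34 in the 4 comparisons, in the order Irf4+/- 4 h and 18 h, then Irf4-/- 4 h and 18 h. P2rx4 gave -0.35 ± 0.47, 0.09 ± 0.47, -0.21 ± 0.47 and 0.14 ± 0.47 in the same order, and neither channel was called. P2rx6 was called only with the block and only at 4 h in Irf4-/- cells (1.78 ± 0.56, adjusted p = 0.114, blocked 0.0464). Its Irf4-/- levels were -7.00, -5.19 and -5.42 in mock and -3.02, -4.83 and -4.41 at 4 h, so experiment A changed most. In that mock group 2 of 3 arrays were well above background. The P2rx6 spot on the Irf4+/- mock A array carried an outlier flag and was left out, which bears on its Irf4+/- values. P2rx2, P2rx3 and P2rx5 were not called, and P2rx1, which forms a rapidly closing channel, did not pass the filter.

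Of the 4 adenosine receptors, Adora2b was called, and the other 3 were not. It raises cyclic AMP through Gs proteins and needs more adenosine than Adora2a. Its mock levels in Irf4+/- cells were -1.24, -2.22 and -1.18, followed by -0.37, -0.54 and 0.08 at 4 h and 0.98, -0.50 and 0.59 at 18 h. In Irf4-/- cells they were -1.23, -1.76 and -1.09 in mock, 0.14, -0.20 and 0.44 at 4 h, and 0.54, -0.61 and 1.01 at 18 h. No IL-4 array overlapped with the mock arrays of its genotype, and experiment B was lowest in all 6 groups. The rise at 18 h was 1.90 in Irf4+/- cells (3.73-fold, adjusted p = 0.0217) and 1.68 in Irf4-/- cells (3.20-fold, adjusted p = 0.0488). At 4 h the changes were 1.27 ± 0.44 (adjusted p = 0.147, blocked 0.00162) and 1.49 (adjusted p = 0.0849, blocked 0.00059). At 18 h the Irf4+/- call was lost without the 18 h array A, the 18 h array C or the mock array B (adjusted p up to 0.119), and the Irf4-/- call was lost in 14 of the 18 fits without 1 array (adjusted p up to 0.262). It was kept there without the Irf4+/- 18 h arrays A and B, the Irf4+/- mock array B and the Irf4-/- 18 h array B. Adora2a, the other Gs-coupled adenosine receptor, gave 0.07, 0.20, 0.48 and 0.78 and was not called (adjusted p = 0.235 for the last, blocked 0.0697). Adora1 and Adora3, which couple to Gi proteins, were not called, with changes between -0.47 and 0.30.

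Of the EP receptors for prostaglandin E2, Ptger2 rose and Ptger4 fell, although both raise cyclic AMP when bound. Ptger2 had mock levels of -1.55, -0.17 and -1.23 in Irf4+/- cells, then -0.51, 0.36 and -0.19 at 4 h and 0.39, 1.17 and 0.34 at 18 h. In Irf4-/- cells it was at -1.15, -0.57 and -1.11 in mock, -0.64, 0.40 and 0.15 at 4 h, and 0.16, 0.61 and 0.63 at 18 h. The 18 h arrays lay above the mock arrays in both genotypes, while the 4 h arrays overlapped with mock. The rise at 18 h was 1.61 in Irf4+/- cells (3.06-fold, adjusted p = 0.0226) and 1.41 in Irf4-/- cells (2.66-fold, adjusted p = 0.0538, blocked 0.000267). At 4 h the values were 0.87 ± 0.38 (adjusted p = 0.301, blocked 0.00626) and 0.92 (adjusted p = 0.274, blocked 0.00493). The Irf4+/- call at 18 h was lost without the 18 h array B or the mock arrays A or C (adjusted p up to 0.11).

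Ptger4 fell at 18 h in both genotypes. Levels in Irf4+/- cells were 0.50, 0.53 and -0.29 in mock, -0.17, 0.04 and -0.10 at 4 h and -1.42, -0.82 and -1.11 at 18 h. Those in Irf4-/- cells were 0.09, 0.22 and -0.55 in mock, -0.74, -0.52 and -0.09 at 4 h and -1.53, -1.16 and -1.33 at 18 h. The 18 h arrays lay below all mock and all 4 h arrays of their genotype, and the 4 h arrays overlapped with mock. The fall was -1.36 in Irf4+/- cells (2.57-fold lower, adjusted p = 0.00708) and -1.26 in Irf4-/- cells (2.40-fold lower, adjusted p = 0.0133). At 4 h it was -0.32 ± 0.26 (adjusted p = 0.765) and -0.37 (adjusted p = 0.638). The Irf4-/- call was lost without the 18 h arrays A or C or the mock arrays A or B (adjusted p up to 0.081). Ptger1, which couples to calcium release, Ptger3, which couples to Gi proteins, and Ptgdr2, a receptor for prostaglandin D2, were not called, with changes between -0.85 and 0.59.

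**Figure D2:**
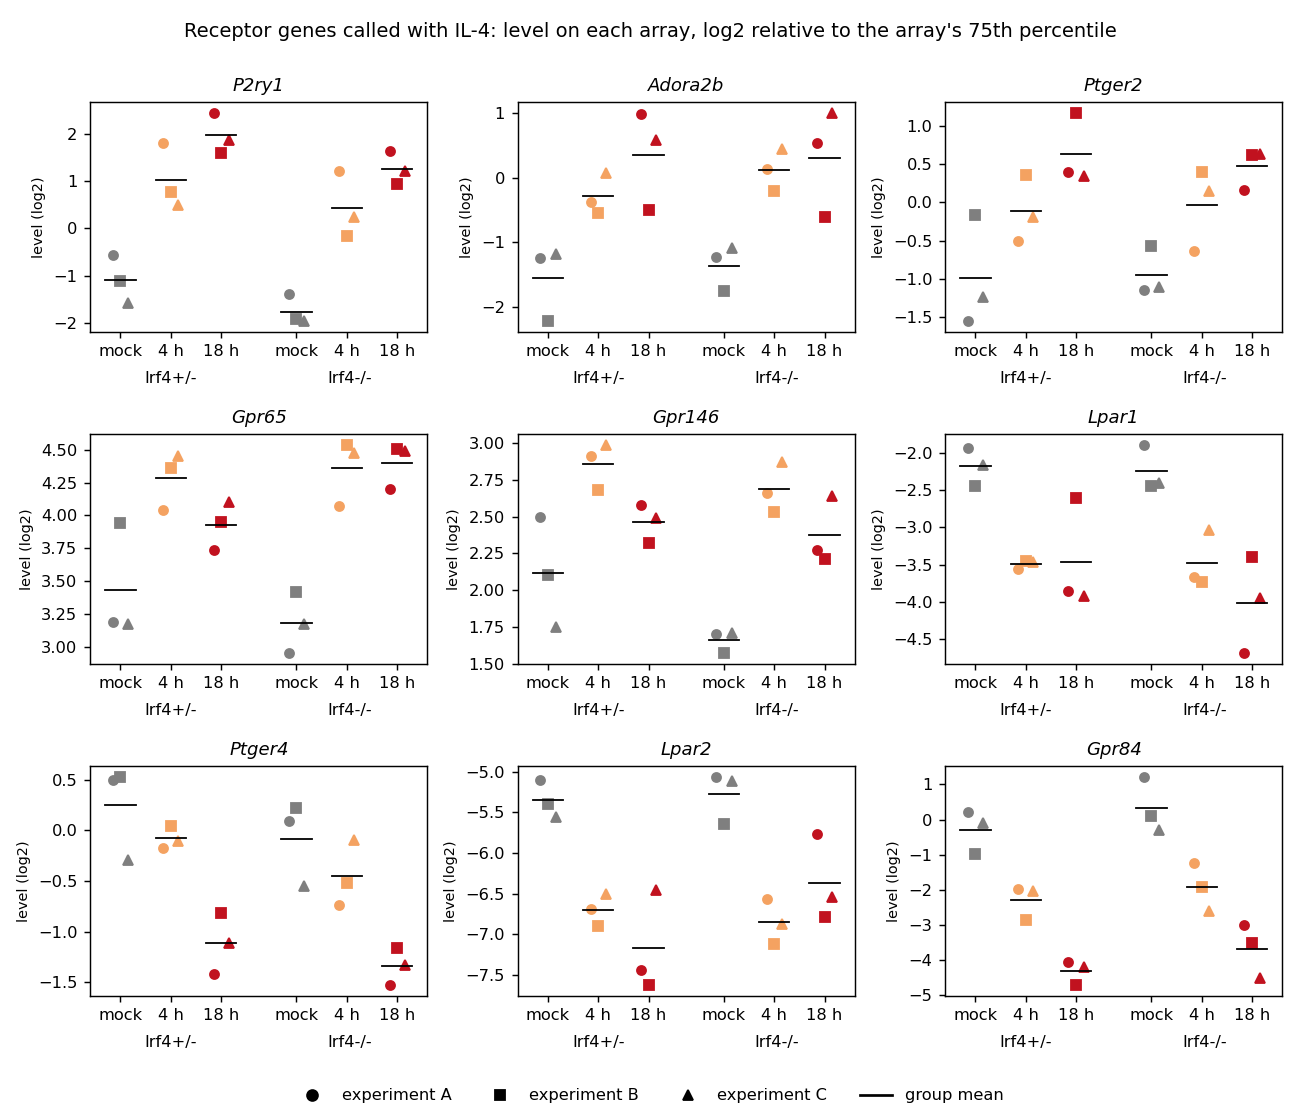
Log2 level (vertical axis, intensity relative to the 75th percentile of the array) of the 9 called receptor genes on each of the 18 arrays, by group; circles, squares and triangles are experiments A, B and C and the bar is the group mean. In P2ry1 all IL-4 arrays stand above the mock arrays, and in Gpr84 the 18 h arrays lie between -4.72 and -3.00 while the mock arrays lie between -0.97 and 1.22.

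Among the 4 LPA receptors that passed, Lpar1 and Lpar2 fell in at least 1 comparison. Lpar1 encodes a widely expressed receptor that couples to several G proteins. It had mock levels of -1.93, -2.44 and -2.16 in Irf4+/- cells, then -3.56, -3.45 and -3.46 at 4 h and -3.85, -2.61 and -3.92 at 18 h. On the Irf4-/- arrays it was at -1.89, -2.44 and -2.41 in mock, -3.67, -3.73 and -3.04 at 4 h and -4.69, -3.40 and -3.95 at 18 h. Every IL-4 array lay below the mock arrays of its genotype. The fall was called at 18 h in Irf4-/- cells (-1.77, 3.41-fold lower, adjusted p = 0.0111), a call lost without the 18 h array A or the mock array A of that genotype (adjusted p up to 0.0538). The other 3 changes were -1.31 ± 0.36 (adjusted p = 0.0561, blocked 0.0215) at 4 h and -1.28 (adjusted p = 0.0654, blocked 0.0276) at 18 h in Irf4+/- cells, and -1.23 at 4 h in Irf4-/- cells (adjusted p = 0.0821, blocked 0.0303). A second Lpar1 probe gave -1.41, -1.69, -1.17 and -1.79.

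Lpar2 was close to background, and it passed the filter only through the 2 mock groups, so the direction of its change is favoured by that choice. On the Irf4+/- arrays it was at -5.10, -5.39 and -5.56 in mock, -6.69, -6.90 and -6.51 at 4 h and -7.44, -7.63 and -6.45 at 18 h. The Irf4-/- arrays gave -5.06, -5.64 and -5.11 in mock, -6.57, -7.12 and -6.87 at 4 h and -5.76, -6.79 and -6.54 at 18 h. All IL-4 arrays were below the mock arrays of their genotype. In Irf4+/- cells 2 of 3 arrays were well above background at 4 h and 1 of 3 at 18 h, and the changes of -1.35 ± 0.32 (adjusted p = 0.0244) and -1.82 (adjusted p = 0.00306) rest in part on signals below it. At 4 h in Irf4-/- cells no array was well above background, so the fall there is a bound, at least 2.19-fold lower (group means -6.85 against -5.27, adjusted p = 0.00974), where each 4 h array was set at the lowest signal that exceeded background on it, or at Lpar2's own value if that was higher. At 18 h in Irf4-/- cells it was -1.09 (adjusted p = 0.0836, blocked 0.0107). The 4 h call in Irf4+/- cells was lost without any single Irf4+/- 4 h array or without the mock arrays A or B (adjusted p up to 0.0987). With another background correction (normexp) the Irf4+/- values turned, to 0.612 at 4 h and 1.574 at 18 h.

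Lpar6 and Lpar4 were called only with the block and only at 4 h. Lpar6, which acts through G12 and G13 proteins, had mock levels of 4.52 to 5.57 and 4 h levels of 1.71, 4.90 and 3.35 in Irf4+/- cells. The changes were -1.65 ± 0.93 and -1.82 ± 0.93 at 4 h in Irf4+/- and Irf4-/- cells (adjusted p = 0.511 and 0.429, blocked p 0.0207 and 0.0126), and -1.34 at 18 h in both (blocked p 0.0605 and 0.0544). Experiment A gave the lowest IL-4 levels. Lpar4 gave 0.89 ± 0.53 and 0.85 ± 0.53 at 4 h (adjusted p = 0.564 and 0.578, blocked p 0.0138 and 0.0188). Lpar3 did not pass the filter, and Lpar5 has no probe under a name of the kind used here.

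Of the sphingosine-1-phosphate receptors, S1pr1 had the largest change, and its call rests on the comparison within experiments. S1pr1 guides the movement of leukocytes out of tissue. Its Irf4+/- levels were -0.51, 0.35 and 0.41 in mock, -3.13, -1.52 and -1.45 at 4 h and -2.75, -0.42 and -0.88 at 18 h. Its Irf4-/- levels were -0.33, 0.64 and 0.84 in mock, -2.97, -0.57 and -1.15 at 4 h and -2.07, -0.04 and -0.58 at 18 h. Each IL-4 array was below the mock array of its own experiment, and experiment A was lowest in every group. At 4 h the changes were -2.12 ± 0.74 (adjusted p = 0.151, blocked 0.000117) and -1.95 (adjusted p = 0.217, blocked 0.000248), with ranges over 11 alternative settings of 7.67e-05 to 0.251 and 0.00018 to 0.322. At 18 h they were -1.44 (adjusted p = 0.492, blocked 0.00206) and -1.28 (adjusted p = 0.523, blocked 0.0049). S1pr2, which acts through G12 and G13 proteins, gave -0.85, -0.58 and -0.75 with a blocked p of 0.00461, 0.0408 and 0.0104, and -0.34 in Irf4-/- cells at 18 h (blocked p 0.195). S1pr4 gave 0.83 at 4 h in Irf4-/- cells (adjusted p = 0.322, blocked 0.00763). S1pr3 was not called, with changes from -0.39 to 0.18, and S1pr5 did not pass the filter.

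Among the receptors for fatty acids, lysolipids and metabolites, Gpr84 had the lowest change of all 81 genes at 18 h in both genotypes. It is a receptor for medium-chain fatty acids that inflammatory stimuli induce in macrophages. Levels in Irf4+/- cells were 0.22, -0.97 and -0.11 in mock, -1.98, -2.85 and -2.04 at 4 h and -4.05, -4.72 and -4.19 at 18 h. Those in Irf4-/- cells were 1.22, 0.09 and -0.30 in mock, -1.24, -1.93 and -2.59 at 4 h and -3.00, -3.52 and -4.52 at 18 h. The 3 conditions did not overlap in either genotype, with mock highest and 18 h lowest. The fall was -2.01 ± 0.48 at 4 h (4.02-fold lower, adjusted p = 0.0276) and -4.03 at 18 h (16.39-fold lower, adjusted p = 0.000179) in Irf4+/- cells. In Irf4-/- cells it was -2.26 at 4 h (4.79-fold lower, adjusted p = 0.0145) and -4.02 at 18 h (16.23-fold lower, adjusted p = 0.000209). The 18 h calls held in all 18 fits without 1 array. The 4 h call in Irf4+/- cells was lost without any single Irf4+/- 4 h array or the mock arrays A or C (adjusted p up to 0.12), and that in Irf4-/- cells without the 4 h array C or the mock array A (adjusted p up to 0.0913).

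Ffar4, named Gpr120 on the array, had the highest 18 h change of the 81 genes in both genotypes, but was called only with the block. It is a receptor for long-chain omega-3 fatty acids. On the Irf4+/- arrays it was at -2.00, -4.50 and -4.80 in mock, -1.43, -2.62 and -3.65 at 4 h and 0.03, -0.86 and -1.09 at 18 h. The Irf4-/- arrays gave -2.06, -4.95 and -4.88 in mock, -1.38, -3.61 and -4.16 at 4 h and -0.14, -1.48 and -1.16 at 18 h. The 18 h arrays lay above all mock arrays, and experiment A stood well above B and C in mock. The 18 h change was 3.12 ± 0.93 in Irf4+/- cells (8.70-fold, adjusted p = 0.0877, blocked 0.000101, SE with the block 0.38) and 3.04 in Irf4-/- cells (adjusted p = 0.108, blocked 0.000147). The adjusted p ranged over 11 alternative settings from 3.81e-05 to 0.17 and from 5.68e-05 to 0.862. At 4 h the changes were 1.20 (blocked p 0.044) and 0.92 (blocked p 0.117).

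Gpr34, a receptor for lysophosphatidylserine, was called only with the block at 18 h in Irf4+/- cells (-1.48 ± 0.94, adjusted p = 0.703, blocked 0.0493). Gpr35 was called only with the block at 18 h in Irf4-/- cells (-1.38 ± 0.44, adjusted p = 0.126, blocked 0.0271). Its Irf4-/- levels were -5.55, -5.15 and -4.89 in mock and -5.42, -6.69 and -7.62 at 18 h. The 2 groups overlapped, and experiment A was not lower at 18 h. In this genotype 3 of 3 mock arrays but 1 of 3 arrays at 18 h were well above background. The change therefore rests in part on signals below background and is a description. Gpr18 and Gpr171 were not called, with changes between -0.27 and 0.43. Gpr55, another receptor for lysolipids, and Hcar1, the lactate receptor, did not pass the filter. Gpr183, the oxysterol receptor, has no probe under a name of the kind used here.

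Among the proton-sensing receptors, Gpr65 rose in both genotypes. It raises cyclic AMP when the medium turns acidic. Its Irf4+/- levels were 3.19, 3.94 and 3.17 in mock, 4.04, 4.36 and 4.45 at 4 h and 3.74, 3.95 and 4.10 at 18 h. Its Irf4-/- levels were 2.95, 3.42 and 3.17 in mock, 4.07, 4.54 and 4.48 at 4 h and 4.20, 4.51 and 4.49 at 18 h. In Irf4-/- cells all IL-4 arrays lay above mock, and in Irf4+/- cells the 18 h arrays overlapped with mock. The rise was 0.85 ± 0.23 at 4 h in Irf4+/- cells (1.80-fold, adjusted p = 0.0489), and 1.18 (2.27-fold, adjusted p = 0.00715) and 1.22 (2.33-fold, adjusted p = 0.00603) in Irf4-/- cells. At 18 h in Irf4+/- cells it was 0.49 (adjusted p = 0.388, blocked 0.0349). The 4 h call in Irf4+/- cells was kept only without the Irf4+/- mock array B and without the Irf4-/- 4 h array A, and was lost in the other 16 fits without 1 array (adjusted p up to 0.196). Gpr132 and Gpr4 were not called without the block; Gpr132 gave -1.06 at 18 h in Irf4-/- cells (adjusted p = 0.279, blocked 0.00209).

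Among the other Gpr-named receptors, Gpr146 rose at 4 h. Levels in Irf4+/- cells were 2.50, 2.10 and 1.75 in mock, 2.91, 2.68 and 2.99 at 4 h and 2.58, 2.32 and 2.49 at 18 h. Those in Irf4-/- cells were 1.70, 1.57 and 1.71 in mock, 2.66, 2.53 and 2.87 at 4 h and 2.27, 2.21 and 2.64 at 18 h. The 4 h arrays lay above mock in both genotypes. The rise was 0.74 ± 0.19 in Irf4+/- cells (1.67-fold, adjusted p = 0.043), lost in 15 of 18 fits without 1 array (adjusted p up to 0.197), and 1.03 in Irf4-/- cells (2.04-fold, adjusted p = 0.00657), called in all 18. It was kept in Irf4+/- cells without the Irf4+/- 18 h array A, the Irf4+/- mock array A or the Irf4-/- 18 h array C. At 18 h it was 0.34 (adjusted p = 0.587) and 0.71 (adjusted p = 0.0594, blocked 0.00999). A second, dimmer Gpr146 probe gave 0.36 at 4 h in Irf4+/- cells, and 0.07 and 0.51 at 4 h and 18 h in Irf4-/- cells. The mean over all kept probes fell below 0 in Irf4-/- cells, at -0.567 and -0.503. Each probe alone gave a change above 0 there. In that mean an array that lacks a value for 1 probe takes the other probe alone, so the negative mean is not read as a fall.

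In several further members of this group the level differed widely between experiments. Gpr162, an orphan receptor, was at 4.45, 6.36 and 5.55 in Irf4+/- mock cells, 1.77, 4.77 and 3.16 at 4 h and 0.55, 4.48 and 2.94 at 18 h. On the Irf4-/- arrays it was at 2.80, 5.87 and 5.67 in mock, 0.24, 4.33 and 3.22 at 4 h and -0.70, 4.25 and 3.31 at 18 h. Experiment A was lowest and B highest in all 6 groups, and each IL-4 array lay below the mock array of its experiment. The changes were -2.22 ± 1.41 (adjusted p = 0.604, blocked 0.00558), -2.79 (adjusted p = 0.476, blocked 0.00133), -2.18 (adjusted p = 0.591, blocked 0.00661) and -2.49 (adjusted p = 0.512, blocked 0.00327), with an SE of 0.48 with the block. Gpr176, an orphan receptor of the circadian clock in the brain, gave 1.17, 1.03, 1.32 and 1.60 (adjusted p = 0.169, 0.282, 0.115 and 0.0506, blocked 0.00412, 0.00963, 0.00199 and 0.000586). C5ar2, a second receptor for complement C5a, gave -0.73 and -1.16 in Irf4+/- cells (blocked p 0.0442 and 0.00381) and -0.43 and -0.64 in Irf4-/- cells (blocked p 0.223 and 0.0726).

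**Figure D3:**
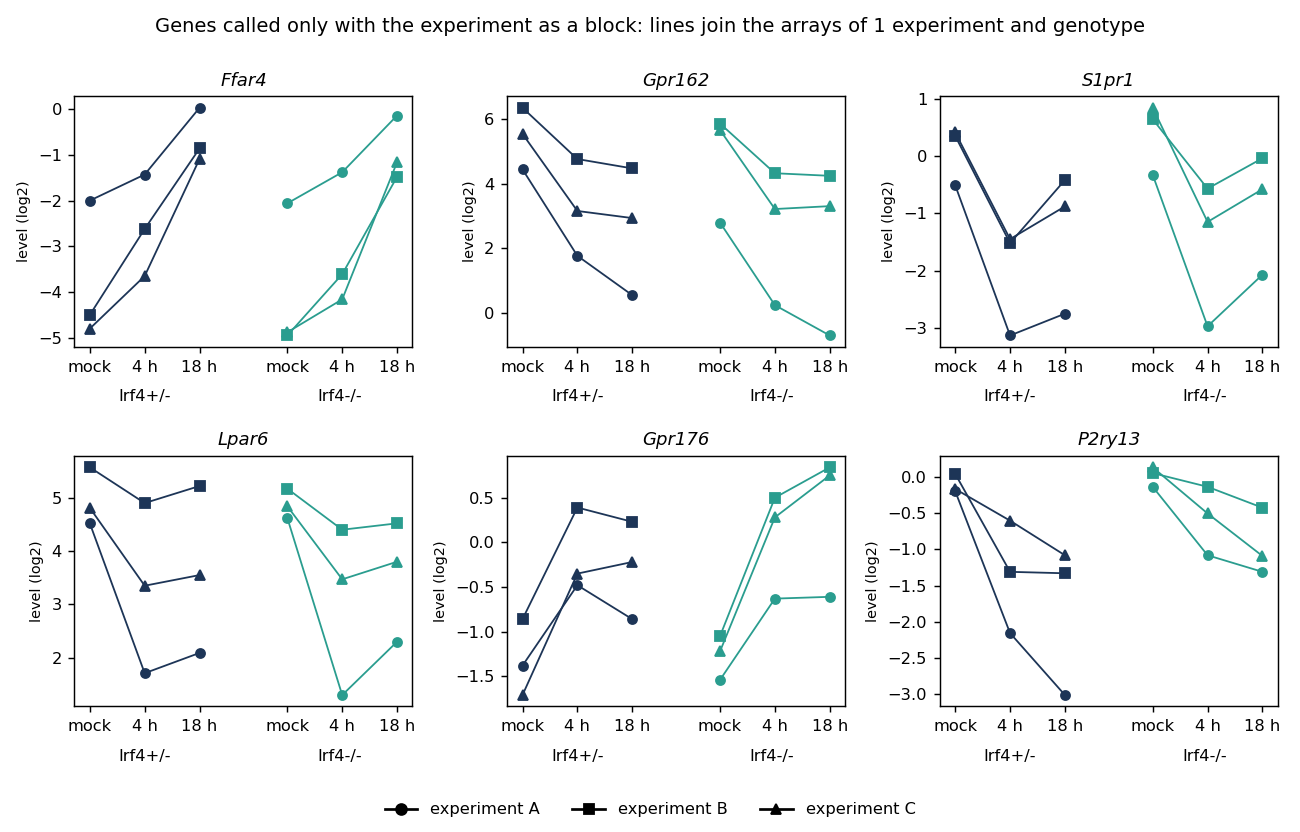
Log2 level (vertical axis) of Ffar4, Gpr162, S1pr1, Lpar6, Gpr176 and P2ry13 in mock, IL-4 4 h and IL-4 18 h; each line joins the 3 arrays of 1 experiment and genotype, and the markers are experiments A, B and C as labelled. In Gpr162 the lines are nearly parallel but lie several log2 units apart, with experiment A lowest.

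Adhesion receptors, which carry long extracellular domains, were called only with the block. Adgrg6 gave -0.73, -0.85, -1.07 and -0.88 (blocked p 0.000241, 6.99e-05, 1.39e-05 and 6.93e-05). Adgrg1 gave -1.02 and -1.08 at 18 h in Irf4+/- and Irf4-/- cells (blocked p 0.00115 and 0.000893). Adgrg3 gave -0.73 and -0.61 in Irf4-/- cells (blocked p 0.0159 and 0.0372). Of the 8 adhesion receptors that passed, none was called without the block. The 8 other membrane proteins with a Gpr name were all well above background on all 18 arrays and none was called without the block. With the block, Gpr155 gave 1.21 at 4 h in Irf4+/- cells (blocked p 0.04) and Wls, which carries Wnt proteins to the cell surface, gave -0.39 at 4 h in Irf4-/- cells (blocked p 0.0291). Gpr141 gave -0.88 at 4 h in Irf4+/- cells, and -0.94 and -0.78 in Irf4-/- cells (blocked p 0.0111, 0.00781 and 0.023). Gpr82 was not well above background on any Irf4+/- 18 h array and was called only with the block there, at least 1.57-fold lower (blocked p 0.044); it passed the filter through the mock group of this same comparison alone, so this is a description. Gpr19 at 4 h (-0.53) and Gpr153 and Gpr173 at 18 h (0.59 and 0.47) were called only with the block in Irf4-/- cells (blocked p 0.0233, 0.0143 and 0.0252).

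Between 4 h and 18 h of IL-4 none of the 81 genes was called in either genotype in limma, against 1.12% of all genes in Irf4+/- and 0.57% in Irf4-/- cells, and 5 and 4 receptor genes had an unadjusted p under 0.05. With the block, 7 and 6 were called, against 11.4% and 8.36% of all genes. Gpr84 gave a further -2.03 in Irf4+/- cells (adjusted p = 0.0627, blocked 0.00218) and -1.76 in Irf4-/- cells (adjusted p = 0.165, blocked 0.00731). Ptger4 gave -1.04 and -0.89 (blocked p 0.0135 and 0.0362), P2ry1 gave 0.95 and 0.83 (blocked p 0.00659 and 0.0183) and Ffar4 gave 1.92 and 2.12 (blocked p 0.00631 and 0.00505). Gpr180 gave -0.62 and -0.52 (blocked p 0.0152 and 0.0443).

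Whether the loss of Irf4 altered these receptors was asked in each condition and for the response to IL-4. No receptor gene was called between the genotypes in mock, at 4 h or at 18 h in limma; 5, 2 and 6 had an unadjusted p under 0.05, and the shares of all genes called were 0%, 0% and 0.0259%. With the block none was called in mock or at 4 h (0.0324% and 0.0259% of all genes), and Gpr132 alone was called at 18 h (0.434% of all genes), at -1.10 in Irf4-/- minus Irf4+/- (95% interval -2.03 to -0.18, adjusted p = 1, blocked 0.0291). The groups of the 2 genotypes did not overlap for 10, 6 and 6 receptor genes, against 6.8%, 2.53% and 6% of all genes. In experiments A and B each genotype was on a slide of its own. In experiment C the genotypes were on different slides in every condition. Slide and genotype therefore cannot be told apart within a condition. Also in experiment C, the Irf4-/- mock array was on another slide than both IL-4 arrays of that genotype. The Irf4+/- 18 h array of experiment C was on another slide than its mock array. The median level of 7 neutrophil markers ranged from -0.18 to -0.02 over the Irf4+/- mock arrays and from -0.36 to 1.44 over the Irf4-/- mock arrays, from -0.97 to 0.30 and -0.71 to 1.33 at 4 h, and from -1.02 to 0.08 and -0.81 to 1.38 at 18 h, and the part of these markers in the comparison was not tested.

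Ptger3 and P2rx5 had the lowest p among the genotype comparisons and lay lower in Irf4-/- cells. Ptger3 was at -0.31, -1.30 and -2.65 in Irf4+/- mock cells against -2.29, -3.44 and -3.58 in Irf4-/-, at -1.46, -2.01 and -3.33 against -3.48, -3.73 and -3.75 at 4 h, and at -0.60, -0.07 and -1.80 against -3.31, -2.76 and -2.51 at 18 h. The genotypes overlapped in mock and not at 4 h or 18 h, and the Irf4+/- arrays spread widely. The difference was -1.68 in mock (95% interval -2.97 to -0.40), -1.39 at 4 h (-2.67 to -0.11) and -2.04 at 18 h (-3.32 to -0.76), each with a limma adjusted p = 1 (blocked 0.28, 0.685 and 0.0872). P2rx5 was at -2.87, -2.87 and -2.96 in Irf4+/- mock cells against -3.03, -3.58 and -3.54, at -2.34, -2.07 and -2.58 against -2.72, -2.82 and -3.35 at 4 h, and at -2.56, -1.95 and -2.46 against -3.46, -3.22 and -3.00 at 18 h. Its genotypes did not overlap in any condition. The difference was -0.48, -0.63 and -0.91 (95% interval at 18 h -1.39 to -0.42, limma adjusted p = 0.967, blocked 0.0815). In mock Gpr146 and Gper1 followed, at -0.46 and -0.47, at 4 h Gpr155 at -1.01, and at 18 h Lpar2 at 0.81 (95% interval 0.13 to 1.49), each with an adjusted p of 1.

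No receptor gene was called for a difference between the genotypes in the IL-4 response, at 4 h or at 18 h, in limma (0% of all genes at each time, also with the block), and 0 and 2 genes had an unadjusted p under 0.05. Those were Adgrv1 at 18 h, whose response was larger in Irf4-/- cells by 1.26 (95% interval 0.10 to 2.42, adjusted p = 1), and Gpr65, by 0.73 (0.04 to 1.41, adjusted p = 1). Gpr152 followed at 18 h with 0.65 (-0.13 to 1.42), and at 4 h the 3 lowest p-values were those of Gpr152 (0.71, -0.07 to 1.48), P2rx2 (0.53, -0.27 to 1.32) and Gpr89 (0.33, -0.21 to 0.87). For P2ry1 the difference at 18 h was -0.04 (95% interval -1.26 to 1.18) and for Gpr84 0.01 (-1.45 to 1.48). Over the 9 called genes the largest difference was 0.34 at 4 h and 0.73 at 18 h, with 95% interval half-widths of 0.59 to 1.46 (median 1.09). Differences of that size between the genotypes lie within these intervals, so the responses are not shown to be alike.

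**Figure D4:**
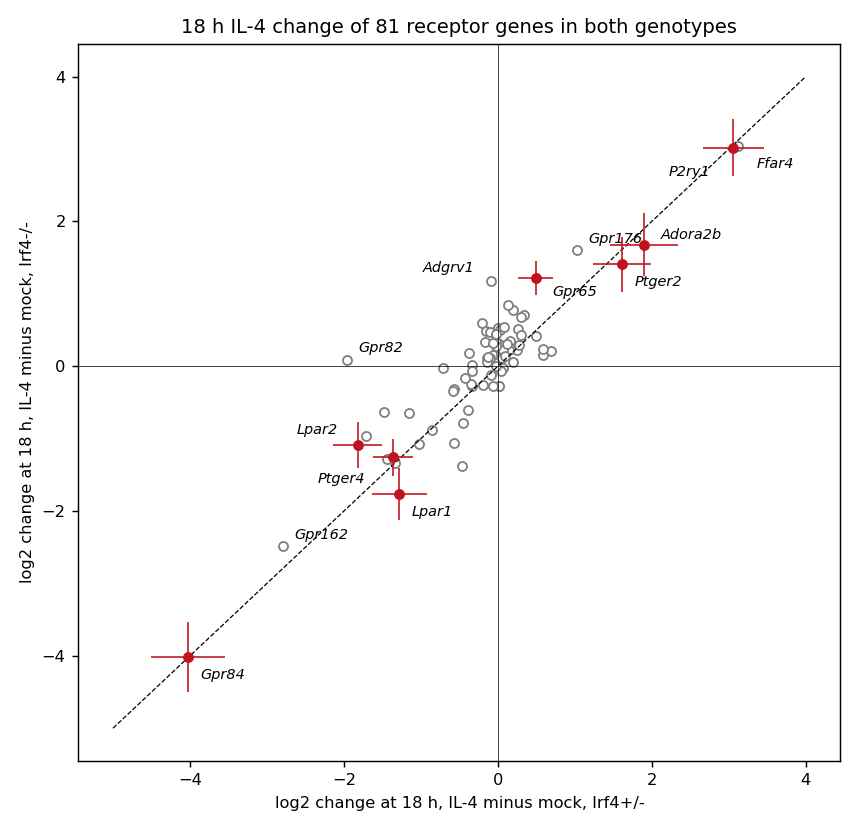
Log2 change after 18 h of IL-4 in Irf4+/- cells (horizontal axis) and in Irf4-/- cells (vertical axis) for the 81 receptor genes; red points with standard errors of the fit are called at 18 h in at least 1 genotype, open points in neither, and the dashed line marks equal changes. P2ry1 (3.06 and 3.02) and Gpr84 (-4.03 and -4.02) lie on the line, and Adgrv1 lies above it.

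Enzymes and signalling partners of these receptors were read from fixed lists. Counts are given in the order Irf4+/- 4 h and 18 h, then Irf4-/- 4 h and 18 h, first without the block, against 4.26%, 4.14%, 3.92% and 3.56% of all genes, and then with it, against 18.2%, 15.5%, 18.2% and 18.4%. Values of named genes are given without the block unless a blocked p stands beside them.

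Of 20 tested genes for making prostanoids and leukotrienes, 3, 2, 3 and 2 rose and 1, 2, 1 and 1 fell; with the block, 3, 5, 3 and 5 were higher and 2, 6, 2 and 2 lower. Ptgs1, the cyclooxygenase that starts prostanoid synthesis, rose by 3.25 and 3.45 in Irf4+/- cells and by 3.01 and 3.55 in Irf4-/- cells. Tbxas1, thromboxane synthase, rose by 0.98, 0.95, 0.94 and 1.02. Ptges, the inducible prostaglandin E synthase, gave -1.07, -1.07, -1.26 and -1.15 and was called lower in all 4 comparisons. Pla2g15, a lysosomal phospholipase, rose at 4 h (1.13 and 1.21) and gave 0.56 and 0.71 at 18 h (blocked p 0.0295 and 0.00797). Ltc4s, leukotriene C4 synthase, was lower at 18 h in Irf4+/- cells (-0.75). Of 8 tested receptors for other prostanoids, leukotrienes and related lipids, 2 rose in each comparison and 0, 1, 0 and 1 fell; with the block, 3, 2, 3 and 3 were higher and 2, 2, 2 and 3 lower. The risers were Ptgir, the prostacyclin receptor (1.21, 1.40, 1.22 and 1.22), and Ltb4r1, the leukotriene B4 receptor (1.60, 2.34, 1.88 and 2.63). Fpr2, a formyl peptide and lipoxin receptor, fell at 18 h (-3.63, with 2 of 3 Irf4+/- arrays well above background, and -3.13) and gave -1.76 at 4 h in each genotype (blocked p 0.000122 and 0.000136).

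Of 14 tested genes for purine release and breakdown, 1 rose in each comparison and none fell; with the block, 3, 3, 4 and 3 were higher and 1, 3, 1 and 3 lower. The gene called without the block was Entpd3, an ectoenzyme that splits ATP and ADP. Entpd3 passed the filter only through the IL-4 groups, where it was high, so its call as higher is a description. Its probe was well above background on all IL-4 arrays, on 1 of 3 Irf4+/- mock arrays and on none in Irf4-/- mock cells. Its rise is therefore a bound in Irf4-/- cells, at least 4.23-fold and 4.10-fold (limma adjusted p = 0.000172 and 0.000168), and the values in Irf4+/- cells, 2.66 ± 0.46 and 2.09 (adjusted p = 0.00304 and 0.0157), rest in part on mock signals below background. With the block at 4 h in Irf4+/- cells, the nucleoside transporter Slc29a2 gave 1.58 (blocked p 7.19e-05), the nucleoside transporter Slc28a2 -1.39 (0.000285) and the ectoenzyme Enpp1 0.79 (0.000881). Of 8 P2X7 and inflammasome genes none rose and 0, 1, 1 and 1 fell; with the block, 0, 1, 0 and 1 were higher and 3, 4, 2 and 2 lower. The gene called was Il18, at 18 h in Irf4+/- cells (-0.92) and at both times in Irf4-/- cells (-0.81 and -1.01).

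Of 14 tested lysophospholipid enzymes and transporters, 0, 1, 0 and 1 rose and 0, 1, 0 and 1 fell; with the block, 1, 1, 1 and 3 were higher and 3, 2, 2 and 2 lower. At 18 h Sphk1, which makes sphingosine-1-phosphate, rose (2.21 and 1.84) and Lpcat2, which makes platelet-activating factor, fell (-1.56 and -1.01). With the block at 4 h in Irf4+/- cells, the lipid exporter Abca1 gave -1.69 (blocked p 0.00105), Lpcat1 0.81 (0.000722) and Lpcat2 -0.72 (0.0102). Of the 3 tested enzymes that make or break down the oxysterol ligands of Gpr183 none was called without the block; with it, Cyp27a1 gave -0.73 at 4 h in Irf4+/- cells (blocked p 0.041) and Hsd3b7 -0.32 at 4 h in Irf4-/- cells (0.0383).

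Downstream, of 16 G protein genes 0, 1, 0 and 0 rose and 1, 1, 0 and 0 fell; with the block, 2, 2, 2 and 4 were higher and 3, 1, 2 and 1 lower. Gng2 fell in Irf4+/- cells (-0.57 and -0.74) and gave -0.51 and -0.37 in Irf4-/- cells (blocked p 0.00467 and 0.0267). Gnb4 rose at 18 h in Irf4+/- cells (0.80) and gave 0.77 at 18 h in Irf4-/- cells (adjusted p = 0.0577, blocked 0.00635). Of 16 tested receptor kinases, arrestins and RGS proteins, which end or limit receptor signals, 3, 1, 2 and 1 fell and none rose without the block; with it, 0, 2, 0 and 2 were higher and 6, 4, 3 and 4 lower. Rgs2, which limits Gq signals, fell at 4 h (-1.36 and -1.51). The receptor kinase Grk5 fell at 4 h (-1.18 and -0.98) and rose from 4 h to 18 h (1.71, adjusted p = 0.000145, and 1.40, adjusted p = 0.00249), where it gave 0.54 and 0.42 against mock (blocked p 0.0106 and 0.0352). Rgs16 gave 1.55 and 2.19 at 18 h (blocked p 0.0304 and 0.00461). The arrestin Arrb2 fell in Irf4+/- cells (-0.83 and -1.15) and at 18 h in Irf4-/- cells (-0.88).

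Of 20 tested cyclic AMP enzymes and targets, 2, 0, 1 and 2 rose and 2, 0, 2 and 0 fell; with the block, 2, 1, 2 and 3 were higher and 3, 3, 2 and 2 lower. The phosphodiesterase gene Pde4b rose at 4 h (0.91 and 1.06). Pde4d was not well above background on any mock array. It passed the filter only through the Irf4-/- 18 h group, where it was high, so its call as higher there is a description. That change is a bound, at least 2.0-fold higher (limma adjusted p = 0.00365, 3 of 3 arrays well above background). At 4 h 1 of 3 arrays measured Pde4d in each genotype, so no fold is given. It was called there in Irf4+/- cells (limma adjusted p = 0.0206) and not in Irf4-/- cells (adjusted p = 0.0909, blocked 0.0408). Pde7a (-0.89 and -0.90) and the cyclic AMP-responsive gene Nr4a1 (-2.00 and -1.74) fell at 4 h. Crem rose at 18 h in Irf4-/- cells (0.93) and gave 0.77 at 18 h in Irf4+/- cells (adjusted p = 0.108, blocked 0.00456).

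The 41 genes that did not pass the filter complete the account. Of these, 16 were well above background on no array, 12 on at most 1 of 3 arrays in any group, and 13 on at most 2 of 3. Just outside the filter were Gpr101 and Gpr142, each well above background on 11 arrays but on at most 2 of 3 in a group. Just inside were Gpr143 and Gpr6, which passed through the Irf4+/- 18 h group alone, and Gpr82, which passed through the Irf4+/- mock group alone. Gpr4 passed through the 18 h groups of both genotypes and Lpar2 through both mock groups. By family, 7 of 8 P2Y, 6 of 7 P2X, 4 of 4 adenosine, 5 of 5 prostanoid, 4 of 5 LPA, 4 of 5 sphingosine-1-phosphate, 4 of 4 proton-sensing, 6 of 9 fatty acid, lysolipid and metabolite, 8 of 16 adhesion and 25 of 51 other Gpr-named receptor genes passed, as did all 8 other membrane proteins.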

How the data were processed

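Per the file headers, the authors scanned single-colour Agilent arrays and extracted them with Feature Extraction 9.5.1; the deposited intensity of a spot is background-subtracted and detrended, with no scaling between arrays. The authors' deposited table of the series holds log2 values; each column follows the scaled values described below after subtraction of the Irf4+/- mock array with its letter (r 0.9999 to 1.0000 over 23690 probes), so it gave a check of direction only. Its column medians lay between -0.18 and 0.21.

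Groups and letters come from the sample titles. Control and outlier spots were left out, spots of 1 probe averaged, saturated spots kept, and log2 intensity was taken minus the 75th percentile of the array, whose own value lay between 719.2 and 1960.7. Probes well above background on all 3 arrays of a group were kept (27514 of 41174), and genes were named through RefSeq accession (22951 probes), current symbol (6659), synonym (3109) or the name in the file (1919); 6536 had none. Within groups the median SD of the 81 receptor genes was 0.51; 3 arrays a group limit the precision. limma 3.58.1 (R 4.3.3, statmod 1.5.0) fitted 1 mean per group over 18 arrays with lmFit and eBayes; p-values are two-sided and Benjamini-Hochberg adjusted. On simulated data the fit recovered large planted changes on average. The simulated arrays varied independently, without deviations shared within an experiment, so this does not check the choice between fits with and without the block. Python 3.11.15, numpy 2.4.6, pandas 2.3.3 and matplotlib 3.10.9 were used.

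Samples with the same letter deviated together from their group means (45 pairs, r 0.434 to 0.876). The 90 pairs of different letters gave r -0.654 to 0.266. Deviations within a group of 3 sum to 0, so values above 0 for the same letter force lower ones for different letters. Because of the same-letter values, and because the labels describe independent experiments with littermates, the letter was used as the block in the paired fit. In total 12 alternatives were tried and each of the 18 arrays was left out in turn. The 7 slides of the file headers were one of them. Every receptor gene called in any of 11 contrasts was named, with the main macrophage receptors of each family and the 3 lowest p-values of each genotype difference; Gpr101 and Gpr142 were named for their place at the filter, and genes called only with the block after their values were seen; some genes are not reported here. The receptor genes and lists were chosen with earlier results of these data known.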

Additional observations from a re-analysis of the deposited data

How the results depend on the processing

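Of the 22 called receptor values, all were kept with the replicate block, the slide and the pool of cells as random blocks and, in direction, in the authors' deposited table; the block changed no other call than those given above. The replicate block called 21, 19, 22 and 21 receptor genes (Irf4+/- 4 h and 18 h, then Irf4-/- 4 h and 18 h, main 5, 6, 5 and 6), 7 and 6 between 18 h and 4 h (main 0), and 1 between genotypes at 18 h (main 0). The pool as a random block called 29, 26, 31, 35, 14 and 16, and the slide 35, 25, 30, 29, 14 and 16. At 4 h in Irf4+/- cells median scaling called 2, quantile normalization 3, no filter on dim probes 3, and fits with only the groups compared 2; these last fits, with fewer arrays, called 2 and 3 at 18 h in Irf4+/- and Irf4-/- cells. Median scaling called 1 between 18 h and 4 h in Irf4+/- cells, and moved the median of all genes between genotypes in mock by 0.11.

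Normexp on the mean and background signals called 1, 2, 2 and 2, and without the spots far dimmer than their background, a setting chosen after seeing the data, 3 at 4 h in Irf4+/- cells. Under normexp these log2 changes turned: in Irf4+/- cells Lpar2 at 4 h (0.612) and 18 h (1.574), Adgrg1 (0.345), Gpr65 (-0.005), Gpr82 (1.729) and Lpar1 (0.433) at 18 h, and Adgrg1 between 18 h and 4 h (0.287); in Irf4-/- cells Lpar4 (-0.365) and S1pr4 (-0.173) at 4 h and Gpr173 at 18 h (-0.155). Without the dim spots Gpr35 turned at 18 h in Irf4-/- cells (0.014), and the mean of all kept probes turned Gpr146 in Irf4-/- cells (-0.567 and -0.503). The Gpr146 turn is one of the mean only, since each of its probes alone gave a change above 0. The cause of the other turns was not tested. Without 1 array the counts ranged from 1 to 4 at 4 h and 5 to 7 at 18 h in Irf4+/- cells, from 4 to 7 and 4 to 8 in Irf4-/- cells, and from 0 to 1 between 18 h and 4 h in Irf4+/- cells; the lowest, 1, came without any Irf4+/- 4 h array. Signal near background limits Lpar2, Gpr82, Gpr35 and, in Irf4-/- mock cells, P2rx6.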
